A study of Mus musculus with 16 samples.

Results

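The endoplasmic reticulum (ER) chaperones, folding enzymes, ER-associated degradation (ERAD) factors and stress sensors of the unfolded protein response were followed in p53-/-; Myc hepatoblasts. These are progenitor cells of the mouse liver without p53 and with forced expression of Myc, which the sample labels call a line of hepatocellular carcinoma cells. The genes were taken by symbol from a list of 32 names, of which 31 matched a row among the 40840 genes of the count table and 1, Vimp-none, matched none. They fall into 15 chaperones and folding enzymes, 10 ERAD factors, 4 sensors and transcription factors, and 2 others (the oxidase Ero1b and the translocon subunit Sec61b), and all 31 passed the filter on low counts that left 20444 genes for testing. The cells received either vehicle (DMSO) or sorafenib (8.5 µM), a multikinase inhibitor used against liver cancer, for 48 hours or 7 days, with 4 libraries in each of the 4 groups and 16 in all. All groups share the p53 deletion and the Myc overexpression and come from a single line, and no source states that replicates were separate cultures, so the p-values measure the spread between these libraries, which may be technical.

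Proteins that enter the ER are folded by chaperones such as the Hsp70 member BiP (Hspa5) and the Hsp90 member GRP94 (Hsp90b1), by the lectins calnexin and calreticulin, which hold glycoproteins, and by disulfide isomerases of the Pdi family. Chains that fail to fold are recognised by Edem lectins, passed through the Sel1l and Syvn1 membrane complex and degraded by the proteasome, a route called ERAD. When unfolded chains accumulate, the membrane sensors IRE1 (Ern1), ATF6 and PERK respond: IRE1 splices the mRNA of the transcription factor Xbp1, ATF6 is cut in the Golgi to release a transcription factor, and PERK slows translation and raises ATF4. ATF6 and spliced XBP1 act on chaperone and ERAD genes, and ATF4 acts mainly on genes of amino acid supply and of the Ddit3 programme. Gene-level counts measure the amount of mRNA, and neither Xbp1 splicing, ATF6 cutting nor protein was read here.

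The libraries held 16586254 to 30828427 counts on genes. In 1 of them, replicate 2 of sorafenib at 48 hours, the level of genes relative to the other libraries dropped by 0.73 on the log2 scale at a point on chromosome 14 (Ipo5, from position 121147750, GRCm39) and stayed low over chromosomes 15 to 19 and X. In the 12 libraries of the other 3 groups, the largest step found the same way was at most 0.025 in size. Of the members, Dnajb11, Sdf2l1, Creld2, Syvn1, Derl1 and Atf6b lie behind this point and Dnajc3 lies just before it, and their 48-hour results are given with and without that library. The labelled cell type was checked against markers fixed for the purpose. The progenitor genes Dlk1 (3488 to 38122 counts in every library) and Krt19 (865 to 3013 counts) were present, whereas the hepatocyte and hepatoblast markers Hnf4a (0 counts), Alb (0 to 1) and Afp (0 to 14) were at or near 0. Trp53 drew 1268 to 4799 counts in every library and Myc 4226 to 17797, and since the deleted exons are not given in the sources used here, the Trp53 count is no check of the deletion.

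The ER stress response element (ERSE), bound by ATF6 with the factor NF-Y, was defined in promoters of chaperone genes, and the stretches below are shown because the sorafenib responses of members that hold this element lay on both sides of zero. It was searched as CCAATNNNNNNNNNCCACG, its second form (ERSE-II) as ATTGGNCCACG, the UPR element as TGACGTGG and the C/EBP-ATF composite element, which ATF4 and CHOP are known to bind, as TGATGNAA, all on both strands, in windows from 250 bases before to 50 bases after the annotated start (RefSeq, GRCm38.p6). A window was present for 27 members, and Hyou1, Manf, Derl1 and Atf6 had none. No match of one motif overlapped a match of another. The ERSE stretches of Canx, Dnajc3 and Ero1b, whose log2 fold changes at 48 hours were 0.09, 0.13 and 0.33, are not shown. The lower-case runs below read 5′ to 3′ in the direction of the gene, the capitals mark the fixed letters of the ERSE, and where the element sits on the other strand it reads as CGTGG followed by ATTGG. The coordinates are GRCm39, from an exact match of each stretch to that genome.
Hspa5, chr2:34662032-34662060, plus strand: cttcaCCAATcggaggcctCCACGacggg
Hsp90b1, chr10:86541497-86541525, minus strand: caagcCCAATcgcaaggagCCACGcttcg
Hsp90b1, chr10:86541392-86541420, minus strand: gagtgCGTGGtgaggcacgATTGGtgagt
Calr, chr8:85573689-85573737, minus strand: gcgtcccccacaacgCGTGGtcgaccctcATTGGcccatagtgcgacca
Creld2, chr15:88703708-88703756, plus strand: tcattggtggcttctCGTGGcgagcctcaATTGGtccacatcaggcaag
Pdia6, chr12:17316477-17316525, plus strand: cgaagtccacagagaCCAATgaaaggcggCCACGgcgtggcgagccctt
Syvn1, chr19:6096557-6096585, plus strand: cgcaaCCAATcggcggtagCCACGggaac
Derl3, chr10:75729071-75729099, plus strand: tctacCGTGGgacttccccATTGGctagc
Herpud1, the ERAD factor with the largest increase, held the second form of the element and the composite element, whose letters are in capitals in the next pair of stretches.
Herpud1 ERSE-II, chr8:95113000-95113020, plus strand: cgctgATTGGgCCACGttgga
Herpud1 composite, chr8:95112940-95112957, plus strand: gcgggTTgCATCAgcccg
The Calr, Creld2 and Pdia6 stretches overlap no annotated gene. The Hspa5 stretch and the second Hsp90b1 stretch lie inside their own annotated genes, and the others overlap a neighbouring annotated gene (Ttc41 at the first Hsp90b1 stretch, D530017H19Rik at Syvn1, Gm56948 at Derl3, Gm15890 at Herpud1).

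The ERSE was present in 10 of the 27 members with a window (37%), namely Hspa5, Hsp90b1, Calr, Canx, Pdia6, Dnajc3, Creld2, Syvn1, Derl3 and Ero1b, against 37 of the 27025 genes with a window (0.137%). ERSE-II was present in Herpud1 and, 8 to 18 bases behind the start, in Dnajb11 (7.41% of members with a window against 0.0444% of all genes with a window). The UPR element was in 0 members and in 0.714% of all genes with a window, and of the members the composite element was in Herpud1 alone (3.7% against 4.51%). Of the 12 members with either form of the ERSE, 4 rose and 4 fell after 48 hours of sorafenib, with a median log2 fold change of 0.02, and 3 rose and 6 fell after 7 days, with a median of -0.11. Over all tested genes, 26.9% were higher and 27.7% lower at 48 hours, and 28.9% and 27.9% at 7 days. The 48-hour values of these 12 members ran from -2.64 for Derl3 to 1.84 for Herpud1. The 15 members whose window held neither form had a median of 0.01 at 48 hours, with 6 higher and 7 lower, and of 0.11 at 7 days, with 8 higher and 7 lower. All 4 members without a window (Hyou1, Manf, Derl1 and Atf6) rose at both times, with medians of 0.74 and 0.47. The elements could not be searched in them. A match is a match of letters in a window, and no match says only that these letters are not there.

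**Figure D1:**
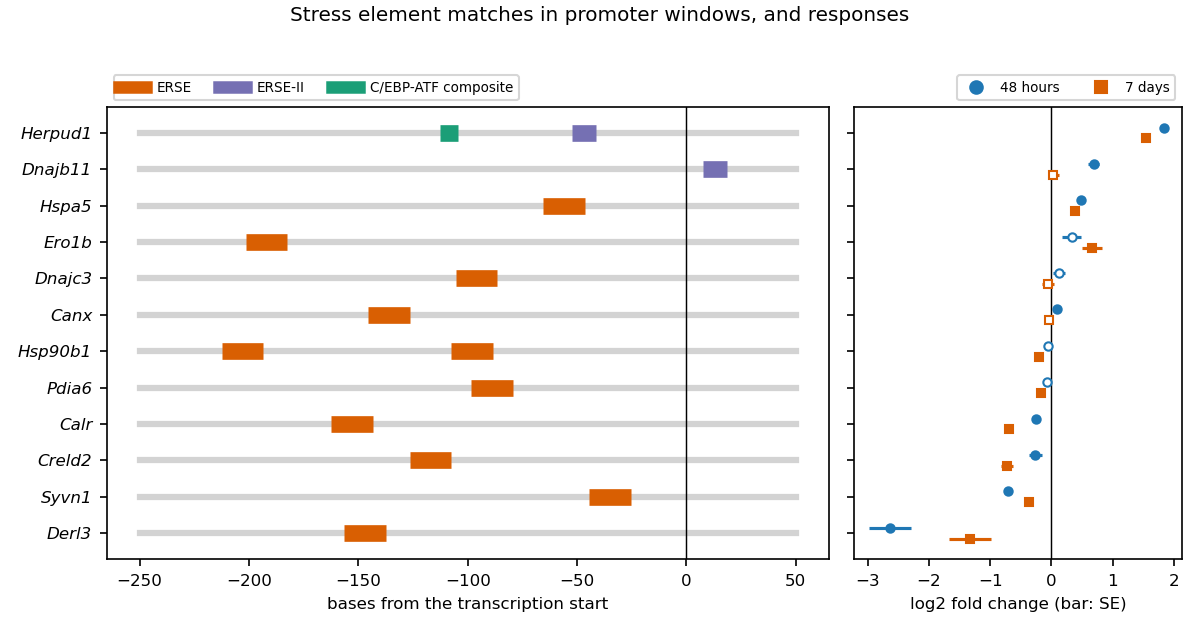
Positions of the searched elements in the promoter windows of the members, as distance in bases from the annotated start, beside the log2 fold change of each gene (sorafenib against DMSO) at 48 hours (circles) and 7 days (squares), with bars for the standard error and open symbols for values that did not pass. Genes with the ERSE in their window lie on both sides of zero, from Derl3 at -2.64 to Herpud1, with ERSE-II, at 1.84 at 48 hours.

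The first comparison asked how mRNA of these genes differed between sorafenib-treated and vehicle-treated cells at each time. At 48 hours, the ERAD factors Herpud1 and Sel1l and the sensors Atf6 and Ern1 rose 2.58-fold to 4.90-fold, BiP (Hspa5) rose by 40.1%, and several abundant folding enzymes (Calr, P4hb, Pdia3, Pdia4) fell by 0.18 to 0.27 on the log2 scale. Of the 31 members, 14 were higher and 11 lower at an edgeR adjusted p below 0.05, where 26.9% of all tested genes were higher and 27.7% lower. At 7 days, 15 were higher and 13 lower, where 28.9% of all tested genes were higher and 27.9% lower. The median log2 fold change of the members was 0.10 at 48 hours and 0.03 at 7 days, and that of all tested genes -0.05 and 0.02. Most members are abundant, and of the 12158 genes with at least 10 counts in every library, 4445 were higher and 4751 lower at 48 hours and 4686 and 4460 at 7 days when the fit was limited to them. By size, 5 members were called with a change of at least 1 on the log2 scale at 48 hours (Herpud1, Sel1l, Derl3, Atf6 and Ern1), where 18% of all genes were, and the same number at 7 days (Herpud1, Derl3, Sdf2l1, Atf6 and Ern1), where 20.6% of all genes were, so that large changes were no more frequent here than over all genes. The 4 treated and 4 vehicle libraries did not overlap for 25 members at 48 hours and for 28 at 7 days, and this held for 48% and 56.8% of all tested genes. For a single gene without overlap, the exact two-sided permutation test of 4 against 4 gives 0.0286, the smallest p it allows.

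Of the 10 ERAD factors, 7 rose and 2 fell at 48 hours, with a median log2 fold change of 0.58, and 7 rose and 3 fell at 7 days, with a median of 0.32. Of the 15 chaperones and folding enzymes, 5 rose and 7 fell at 48 hours, with a median of -0.07, and 4 rose and 8 fell at 7 days, with a median of -0.17. Among the 4 sensors and transcription factors, 2 rose and 1 fell at 48 hours and 3 rose and 1 fell at 7 days, with medians of 0.73 and 0.81. These medians describe lists whose members were chosen with earlier results of these data known, and no test compares them. Without the library that drops on chromosome 14, the ERAD counts at 48 hours were the same (7 and 2, median 0.61), and the chaperone counts were 6 higher and 8 lower. Over all alternative settings, the 48-hour median stayed between 0.51 and 0.69 for the ERAD factors and between -0.14 and -0.03 for the chaperones.

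**Figure D2:**
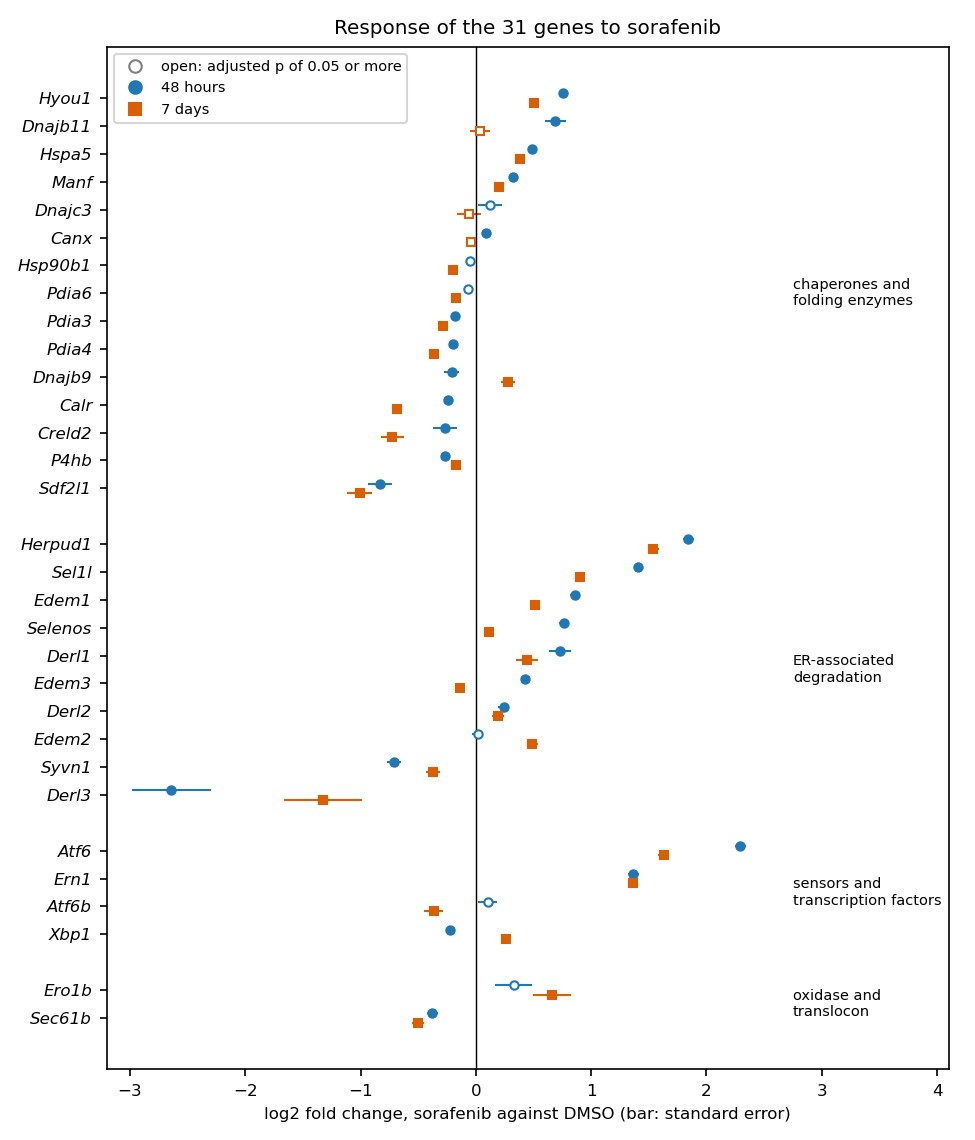
Log2 fold change (sorafenib against DMSO) of the 31 members by class at 48 hours and 7 days, with bars for the standard error and open symbols for values whose adjusted p did not pass 0.05. Circles are 48 hours and squares 7 days. At 48 hours the ERAD factors and sensors reach 1.84 and 2.29, and the chaperones and folding enzymes lie between -0.83 and 0.76.

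Other markers moved with the treatment. In bulk RNA, fewer cells of a type and less RNA per cell cannot be told apart. The summed normalised level of 9 progenitor markers (1 at 0 in every library and 2 under 10 counts everywhere) was 34810 to 36180 in the DMSO libraries and 12240 to 14010 in the sorafenib libraries at 48 hours, and 18300 to 20170 and 6039 to 6307 at 7 days. Most of this sum was Dlk1 (31439 to 32979 against 9731 to 11577 at 48 hours), and Sox9 of the same list was higher with sorafenib (187 to 249 against 587 to 717 at 48 hours, and 338 to 377 against 843 to 943 at 7 days). Over 5 fibroblast and stellate markers, led by Col1a1 and Acta2, the sum was 46740 to 49820 with DMSO and 133500 to 154800 with sorafenib at 48 hours, and 66170 to 67940 and 114500 to 119600 at 7 days. Pdgfrb of the same list was lower with sorafenib (1615 to 1738 against 688 to 1109 at 48 hours, and 669 to 788 against 459 to 488 at 7 days), as was Des at 7 days (32.4 to 51.4 against 13.5 to 28.4). Leukocyte markers summed to 75.6 to 88.0 with DMSO and 61.9 to 89.8 with sorafenib at 48 hours, and to 125 to 157 and 75.2 to 86.9 at 7 days, with Adgre1 at 0 and Ptprc at 0 to 4 counts. Endothelial markers summed to 43.0 to 75.6 with DMSO and 115 to 142 with sorafenib at 48 hours, and to 28.1 to 39.7 and 186 to 222 at 7 days, nearly all of it Kdr, with Pecam1 at 0 to 9 and Cdh5 at 0 to 2 counts. The part of these shifts in the member results was not tested.

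Atf6, the sensor that is itself a transcription factor, had the largest increase of all members. Its normalised counts were 1394, 1366, 1304 and 1316 in the 4 DMSO libraries and 6172, 7175, 6746 and 6291 in the 4 sorafenib libraries at 48 hours. They were 2076, 2246, 2058 and 2220.4 with DMSO and 6758, 6677, 6663 and 6481 with sorafenib at 7 days. Every sorafenib library lay above every DMSO library at both times, and the sorafenib libraries of both times overlapped while the DMSO libraries of 7 days lay above those of 48 hours. Atf6 had a log2 fold change of 2.29 ± 0.05 (SE, edgeR adjusted p = 7.24e-19) at 48 hours, a 4.9-fold increase, and 1.63 ± 0.04 (SE, edgeR adjusted p = 5.81e-17) at 7 days, a 3.09-fold increase. Its paralog Atf6b took another course. At 48 hours its log2 fold change was 0.10 (edgeR adjusted p = 0.321), and without the library that drops on chromosome 14 it was 0.22 and was called (edgeR adjusted p = 1.22e-07). At 7 days Atf6b fell, by 0.36 on the log2 scale (edgeR adjusted p = 0.000773).

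Ern1 encodes IRE1, the kinase and RNase that splices Xbp1. Its DMSO libraries held 751, 769, 789 and 792 normalised counts at 48 hours, against 1957, 2152, 2044 and 1850.1 with sorafenib. At 7 days they held 910.4, 958, 887 and 949, against 2389, 2259, 2435 and 2436 with sorafenib. The groups were separate at both times. Ern1 rose by nearly the same amount at both, with a log2 fold change of 1.37 ± 0.05 (SE, edgeR adjusted p = 1.69e-15) at 48 hours and of 1.36 ± 0.05 (SE, edgeR adjusted p = 1.11e-15) at 7 days. The difference between those responses was -0.01 on the log2 scale, with a 95% interval from -0.13 to 0.12.

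Xbp1, the target of IRE1 splicing, turned direction between the times. Its counts at 48 hours were 1957, 2161, 2132 and 2094 with DMSO and 1767, 1864, 1771 and 1755 with sorafenib. After 7 days the DMSO libraries had 1567, 1464, 1502 and 1449 and the sorafenib libraries 1772, 1852, 1770.2 and 1772. Sorafenib libraries lay below all DMSO libraries at 48 hours and above all of them at 7 days, yet their own levels overlapped between the times (1789 ± 50.6 and 1791 ± 40.3, mean ± SD, n = 4). The log2 fold change was -0.22 ± 0.04 (SE, edgeR adjusted p = 5.14e-05) at 48 hours and 0.26 ± 0.04 (SE, edgeR adjusted p = 7.07e-06) at 7 days. The opposite strand of 22% of the annotated Xbp1 exon bases carries exons of Ccdc117, and since the strand setting of the counting is not given in the sources used here, reads of that gene may be included.

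Among the chaperones, Hspa5 (BiP) is the usual marker of the response. At 48 hours its normalised counts were 14882, 15207, 14843 and 13885 with DMSO and 19475, 20825, 21309 and 20764 with sorafenib. At 7 days they were 17686, 18040.3, 18098 and 18226 with DMSO and 22812, 24065, 23320.0 and 24014 with sorafenib. All treated libraries lay above all vehicle libraries. The log2 fold change was 0.49 ± 0.03 (SE, edgeR adjusted p = 9.69e-11) at 48 hours and 0.39 ± 0.03 (SE, edgeR adjusted p = 2.99e-09) at 7 days, the latter a 1.31-fold increase. Exons of Rabepk face 44.2% of the annotated Hspa5 exon bases on the other strand, with the same limit of the unknown strand setting.

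Hsp90b1 (GRP94), which shares the ERSE with Hspa5 and holds it at 2 places, did not follow it. Its counts at 48 hours were 29202, 30564, 29891 and 28152 with DMSO and 27212, 28409, 29349.5 and 28643 with sorafenib. By 7 days they were 28664, 28674, 29323 and 28829 with DMSO and 24759.8, 25699, 24934 and 25278 with sorafenib. The groups overlapped at 48 hours and were separate at 7 days, where all sorafenib libraries were lower. The log2 fold change was -0.05 ± 0.03 (SE, edgeR adjusted p = 0.142) at 48 hours and -0.20 ± 0.03 (SE, edgeR adjusted p = 6.92e-06) at 7 days. At 48 hours it was called lower, at -0.08 to -0.10, when any 1 of 5 libraries was left out (DMSO replicates 1, 3 and 4, sorafenib replicates 3 and 4).

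Beside Hspa5, Hyou1 and Manf were higher at both times. Hyou1, an Hsp110-type partner of BiP, went from 6876 ± 89.2 to 11606 ± 385 normalised counts (mean ± SD, n = 4) at 48 hours and from 9053 ± 241 to 12822 ± 188 at 7 days, log2 fold changes of 0.76 (edgeR adjusted p = 1.33e-14) and 0.50 (edgeR adjusted p = 7.44e-12). Manf, a secreted ER-resident survival factor, rose by 0.32 and 0.20 (edgeR adjusted p = 7e-08 and 2.38e-05). Another gene, Rbm15b, covers 32.6% of the annotated Manf exon bases on the same strand, so its value is uncertain.

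The glycoprotein lectin Calr and the disulfide isomerases moved down. Calr had 26516, 26587, 26408 and 25757 normalised counts with DMSO and 21560.4, 22408, 22278 and 22598 with sorafenib at 48 hours. At 7 days it had 29319.5, 29249, 29231 and 29316 and 18436, 18187, 18089 and 18104. All treated libraries lay below all vehicle libraries, and the log2 fold change was -0.24 ± 0.02 (SE, edgeR adjusted p = 1.77e-08) at 48 hours and -0.69 ± 0.02 (SE, edgeR adjusted p = 1.68e-15) at 7 days. Per kilobase of its canonical transcript, Calr was the highest of the members in DMSO at 48 hours (11500 normalised counts per kb), ahead of Hsp90b1 (10410) and P4hb (10010). With sorafenib at 7 days, the order was Hsp90b1 (8893), Calr (7956) and P4hb (7750).

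P4hb, the main disulfide isomerase, fell by 0.27 at 48 hours and by 0.17 at 7 days on the log2 scale (edgeR adjusted p = 1.8e-08 and 9.62e-06). Pdia3, which works with the lectins, fell by 0.18 and 0.29 (edgeR adjusted p = 6.33e-06 and 1.2e-08), and Pdia4 fell by 0.19 and 0.37 (edgeR adjusted p = 4e-06 and 3.94e-10). Exons of other genes face 26.5% of the annotated Pdia3 exon bases and 21.2% of those of P4hb on the other strand, with the same limit of the unknown strand setting. Pdia6 had -0.07 (edgeR adjusted p = 0.0529) at 48 hours and -0.17 (edgeR adjusted p = 5.72e-05) at 7 days. At 48 hours Pdia6 was called lower, at -0.07 to -0.11, without any 1 of the 48-hour libraries other than DMSO replicate 2. The other lectin, Canx, rose by 0.09 at 48 hours (edgeR adjusted p = 0.0157), was -0.04 (edgeR adjusted p = 0.24) at 7 days, and lost the 48-hour call without any 1 of 5 libraries (DMSO replicates 1, 3 and 4, sorafenib replicates 3 and 4), at 0.04 to 0.06 with edgeR adjusted p of 0.104 to 0.287.

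Sdf2l1, a partner of ER Hsp40 proteins, fell most among the chaperones. At 48 hours it had 1138, 1068, 1163 and 1053 normalised counts with DMSO and 638, 407, 725 and 688 with sorafenib. At 7 days it had 1038, 1032, 942 and 945 with DMSO and 469, 483, 492 and 520.4 with sorafenib. The groups were separate at both times, and the second sorafenib library at 48 hours stood at 0.595 of the mean of the other 3. The log2 fold change was -0.83 ± 0.10 (SE, edgeR adjusted p = 9.77e-07) at 48 hours, -0.68 without that library (edgeR adjusted p = 1.51e-16), and -1.01 ± 0.10 (SE, edgeR adjusted p = 6.38e-08) at 7 days. Creld2, an ER stress-inducible isomerase, was -0.27 (edgeR adjusted p = 0.0405) at 48 hours. Without the same library it was -0.12 (edgeR adjusted p = 0.028), and the call was lost without DMSO replicate 2 or 4 (-0.27 and -0.28, edgeR adjusted p = 0.0617 and 0.0603). At 7 days Creld2 fell by 0.72, from 1403 ± 73.5 to 849 ± 25.1 normalised counts (mean ± SD, n = 4, edgeR adjusted p = 3.56e-06).

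The ER Hsp40 co-chaperones, which bring unfolded chains to BiP, had 3 different courses. Dnajb11 had 1602, 1510.4, 1498 and 1489 normalised counts with DMSO and 2479, 1768, 2858 and 2694 with sorafenib at 48 hours. At 7 days it had 2673, 2887, 2709.6 and 2832 and 2749, 2878, 2907 and 2830.2. The treated libraries were all higher at 48 hours, and the groups overlapped at 7 days. Dnajb11 rose by 0.69 ± 0.09 (SE, edgeR adjusted p = 1.97e-06) at 48 hours, by 0.82 without the library that drops on chromosome 14 (edgeR adjusted p = 4.38e-25), and was 0.03 ± 0.09 (SE, edgeR adjusted p = 0.769) at 7 days. Dnajb9, a J-protein that also acts on IRE1, fell by 0.21 at 48 hours (edgeR adjusted p = 0.0105) and rose by 0.28 at 7 days (edgeR adjusted p = 0.000897). Dnajc3, an inhibitor of PERK as well as a co-chaperone, was 0.13 (edgeR adjusted p = 0.333) and -0.06 (edgeR adjusted p = 0.661), and without the same library its 48-hour value was 0.27 and was called (edgeR adjusted p = 1.86e-09).

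Herpud1, a membrane scaffold of the ERAD complex, had the largest increase among the ERAD factors. At 48 hours its normalised counts were 902, 839.8, 874 and 811 with DMSO and 2942, 3366, 3009 and 2959 with sorafenib. At 7 days they were 928, 898, 929.7 and 836 with DMSO and 2632, 2563, 2596 and 2651 with sorafenib. All treated libraries lay above all vehicle libraries at both times. Herpud1 had a log2 fold change of 1.84 ± 0.05 (SE, edgeR adjusted p = 3.09e-17) at 48 hours, 3.58-fold, and 1.54 ± 0.05 (SE, edgeR adjusted p = 3.6e-16) at 7 days, 2.91-fold.

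Sel1l, the adaptor that holds the ubiquitin ligase Syvn1 in the ERAD complex, rose as well. Its counts were 2366, 2560.1, 2406 and 2451 with DMSO and 6221, 6764, 6539 and 6405 with sorafenib at 48 hours. At 7 days they were 2767, 2811, 2789.9 and 2729 with DMSO and 5127, 5264, 5094 and 5226 with sorafenib. The groups were separate at both times, with a log2 fold change of 1.41 ± 0.03 (SE, edgeR adjusted p = 5.35e-18) at 48 hours and 0.90 ± 0.03 (SE, edgeR adjusted p = 4.15e-15) at 7 days. Syvn1 (HRD1), its partner, moved the other way. Syvn1 fell from 2192 ± 123 to 1336 ± 138 normalised counts (mean ± SD, n = 4) at 48 hours, log2 fold change -0.71 (edgeR adjusted p = 2.32e-09), and from 1871 ± 53.5 to 1447 ± 64.3 at 7 days, log2 fold change -0.37 (edgeR adjusted p = 1.55e-05). Without the library that drops on chromosome 14, the 48-hour value of Syvn1 was -0.65, and exons of other genes face 17.5% of its annotated exon bases.

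The Edem lectins, which take mannose-trimmed glycoproteins to degradation, each behaved differently. Edem1 rose at both times, by 0.86 and 0.51 (edgeR adjusted p = 1.49e-12 and 3.63e-09). Edem2 was 0.01 (edgeR adjusted p = 0.828) at 48 hours and rose by 0.49 at 7 days (edgeR adjusted p = 3.79e-08). Edem3 had 1664, 1713, 1688 and 1599 normalised counts with DMSO and 2218, 2258, 2228 and 2276 with sorafenib at 48 hours. At 7 days it had 2182, 2384, 2369.5 and 2249 with DMSO and 1949, 2157, 2166 and 2092 with sorafenib. Treated libraries were all higher at 48 hours and all lower at 7 days, with log2 fold changes of 0.43 ± 0.04 (SE, edgeR adjusted p = 1.24e-08) and -0.13 ± 0.04 (SE, edgeR adjusted p = 0.00635).

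Selenos, a selenoprotein that links the p97 ATPase to the Derlin channel proteins, had 637, 715, 648 and 639 normalised counts with DMSO and 1083, 1072, 1136 and 1186 with sorafenib at 48 hours. At 7 days it had 1051, 1046, 1086 and 1062 and 1098, 1189.8, 1133 and 1166. The groups were separate at both times, by a narrow margin at 7 days. The log2 fold change was 0.76 ± 0.05 (SE, edgeR adjusted p = 1.82e-11) at 48 hours and 0.11 ± 0.04 (SE, edgeR adjusted p = 0.0368) at 7 days, and the 7-day call was lost without any 1 of 6 libraries of that time (DMSO replicates 1, 2 and 4, sorafenib replicates 2, 3 and 4), with edgeR adjusted p of 0.0508 to 0.112.

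The 3 Derlins, which form the channel, split as well. Derl1 rose by 0.73 at 48 hours (edgeR adjusted p = 1.57e-06), by 0.86 without the library that drops on chromosome 14, and by 0.44 at 7 days (edgeR adjusted p = 0.000384). Derl2 rose by 0.24 and 0.19 (edgeR adjusted p = 0.000463 and 0.00239). Derl3 was scarce, and its unnormalised counts were 28, 30, 28 and 31 with DMSO against 6, 2, 3 and 3 with sorafenib at 48 hours. At 7 days they were 11, 8, 18 and 22 with DMSO against 4, 7, 6 and 6 with sorafenib. The groups did not overlap at either time, and the log2 fold change was -2.64 ± 0.34 (SE, edgeR adjusted p = 1.36e-06) at 48 hours and -1.33 ± 0.34 (SE, edgeR adjusted p = 0.00241) at 7 days. With at most 3 counts in 3 of the treated libraries at 48 hours, the size of its fold is poorly known.

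**Figure D3:**
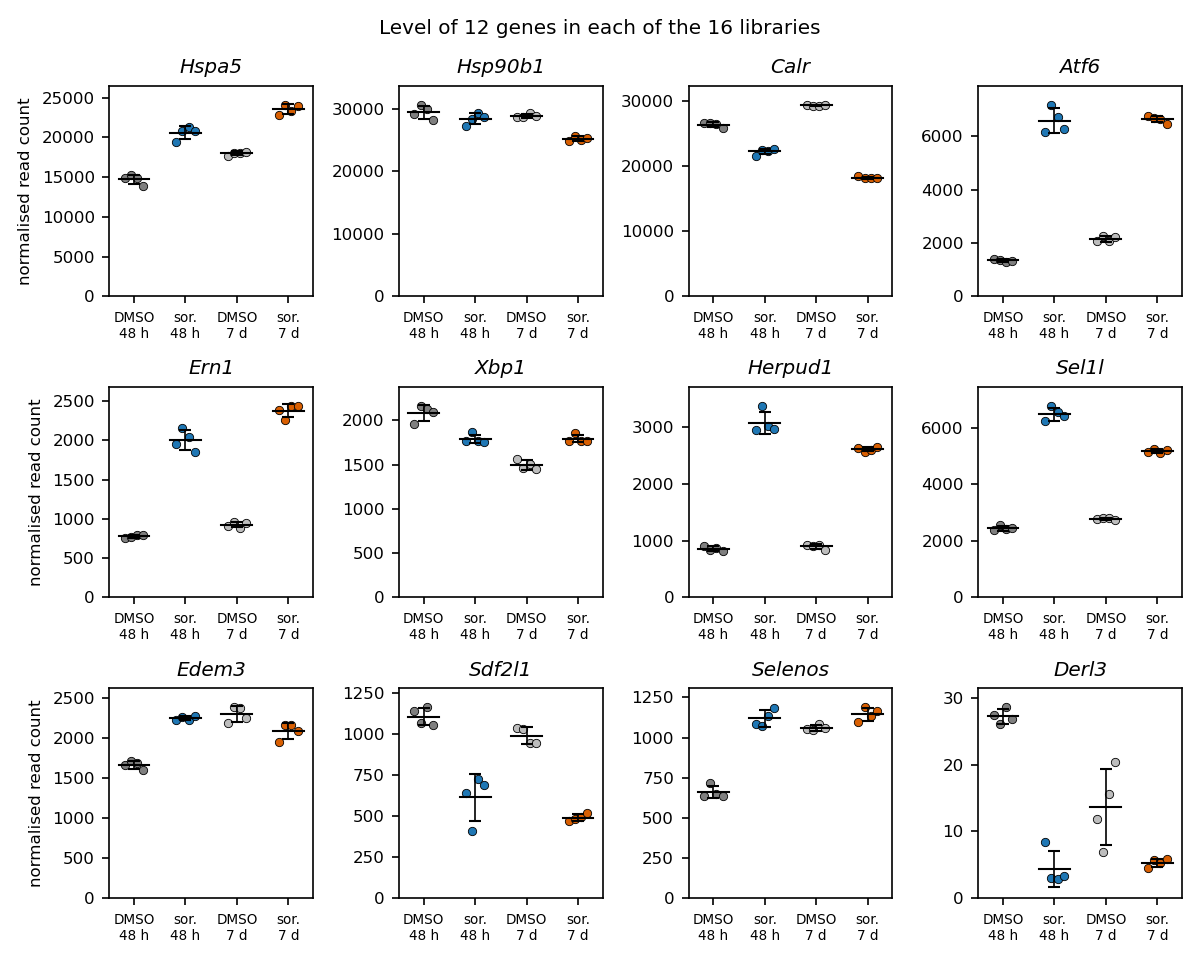
Normalised counts of 12 members in each of the 16 libraries, by treatment and time, with a bar for the mean and its SD (n = 4). In Atf6, Ern1, Herpud1 and Sel1l the sorafenib libraries lie far above the DMSO libraries at both times, and in Selenos and Edem3 the 7-day DMSO libraries lie close to the sorafenib libraries.

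Sec61b, a subunit of the channel through which chains enter the ER, fell by 0.38 at 48 hours and by 0.50 at 7 days on the log2 scale (edgeR adjusted p = 1.84e-06 and 2.65e-08). Ero1b, an ER oxidase that drives disulfide formation, was low, with 65.2 ± 6.78 and 81.5 ± 9.82 normalised counts (mean ± SD, n = 4) at 48 hours. Its log2 fold change was 0.33 (edgeR adjusted p = 0.0916) at 48 hours, 0.36 without the library that drops on chromosome 14 (edgeR adjusted p = 0.0496), and 0.66 (edgeR adjusted p = 0.00198) at 7 days.

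Of the members called at both times, 11 were higher at both (Hspa5, Hyou1, Manf, Herpud1, Edem1, Sel1l, Derl1, Derl2, Selenos, Atf6 and Ern1) and 9 lower at both (Calr, Pdia3, Pdia4, P4hb, Sdf2l1, Creld2, Syvn1, Derl3 and Sec61b). Edem3 went from higher to lower, and Dnajb9 and Xbp1 from lower to higher. Canx and Dnajb11 passed the test at 48 hours but not at 7 days, and Hsp90b1, Pdia6, Edem2, Atf6b and Ero1b at 7 days but not at 48 hours. Dnajc3 passed at neither. The shares of all tested genes with the same courses were not computed.

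The second comparison asked whether the response at 7 days differed from that at 48 hours. By the interaction term, which subtracts the 48-hour log2 fold change from the 7-day one, 15 members were lower and 5 higher, where 21.3% of all tested genes were lower and 15.5% higher. The median difference was -0.15 over the members and 0.02 over all tested genes. With the libraries scaled by total counts alone, the split over all genes turned from 3162 higher and 4353 lower to 4125 higher and 3292 lower, the median over all genes moved to 0.12, and the calls of Hsp90b1, Canx, Pdia3 and Pdia4 were lost. The 5 called members with the largest differences were Atf6 at -0.67 ± 0.06 (SE, edgeR adjusted p = 5.13e-08), Dnajb11 at -0.66 ± 0.13 (SE, edgeR adjusted p = 0.000354), Selenos at -0.65 ± 0.06 (SE, edgeR adjusted p = 9.5e-08), Edem3 at -0.57 ± 0.06 (SE, edgeR adjusted p = 1.07e-07) and Sel1l at -0.51 ± 0.05 (SE, edgeR adjusted p = 2.91e-08). Of the chaperones, 8 were lower and 2 higher, and of the ERAD factors, 5 lower and 2 higher. The members with a higher response at 7 days were Dnajb9 (0.49), Xbp1 (0.48), Edem2 (0.47), Syvn1 (0.34) and P4hb (0.10). Of the 20 called members, 11 had a response nearer to zero at 7 days. The same share over all called genes was not computed, so this count has no background.

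Several of these calls changed when 1 library was left out. Pdia3 (-0.05 to -0.10), P4hb (0.09 to 0.10) and Canx (-0.08 to -0.11) lost the call without 10, 8 and 5 single libraries, Creld2 (-0.35 to -0.42) without any 1 of 3, and Hsp90b1 (-0.10) without sorafenib replicate 3 at 48 hours. Without the library that drops on chromosome 14, Dnajc3 (-0.33), Sdf2l1 (-0.32), Derl1 (-0.41), Pdia6 (-0.10) and Manf (-0.11) were also called lower, Dnajb11 stood at -0.78, Creld2 at -0.60, Syvn1 at 0.27 and Atf6b at -0.58. Derl3, at 1.31 ± 0.53 (SE, edgeR adjusted p = 0.0592) with all libraries, was called without DMSO replicate 4 at 7 days (1.57) or without sorafenib replicate 1 at 48 hours (1.79).

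**Figure D4:**
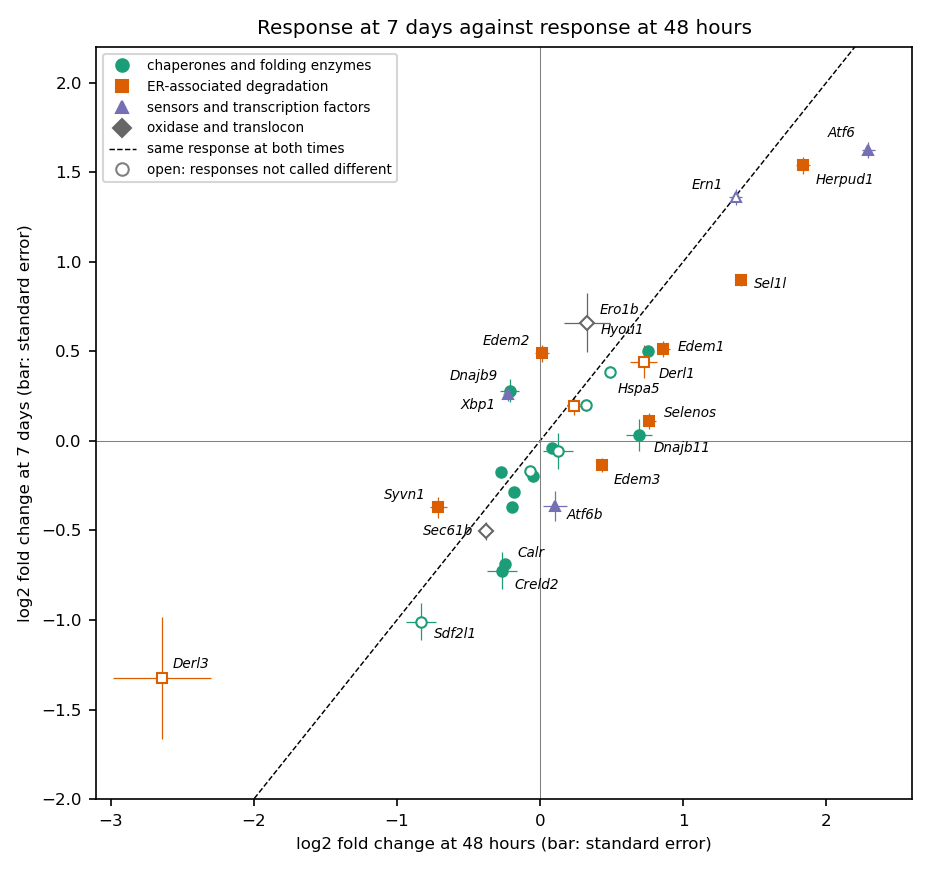
Log2 fold change (sorafenib against DMSO) of each member at 7 days against that at 48 hours, with standard errors, symbols by class, and a dashed line for the same response at both times. Open symbols are members whose responses were not called different, such as Ern1 on the line, and Atf6, Herpud1, Sel1l, Selenos, Dnajb11 and Edem3 lie to the right of it.

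The same groups give the change with time under each treatment, and these comparisons share their libraries with the ones above, so the values are set side by side as a description. In the DMSO cells, 18 members were higher and 8 lower at 7 days than at 48 hours, where 23.9% of all tested genes were higher and 25.5% lower. In the sorafenib cells, 5 were higher and 9 lower, where 17.5% of all genes were higher and 22.3% lower. Dnajb11 went up by 0.86 on the log2 scale with DMSO and had 0.21 (edgeR adjusted p = 0.0732) with sorafenib, a rise that DESeq2 called (0.24, DESeq2 adjusted p = 0.0408) and that edgeR called without sorafenib replicate 3 or 4 at 48 hours (0.31 and 0.28, edgeR adjusted p = 0.0114 and 0.0323). Without the library that drops on chromosome 14, in which Dnajb11 is low, the sorafenib value was 0.08 and was not called (edgeR adjusted p = 0.0555). Selenos went up by 0.68 with DMSO and had 0.03 (edgeR adjusted p = 0.602) with sorafenib. Atf6 went up by 0.68 with DMSO and had 0.01 (edgeR adjusted p = 0.873) with sorafenib. For Selenos and Atf6 the sorafenib libraries of both times overlapped, and the DMSO libraries did not. Edem3 rose by 0.46 with DMSO and fell by 0.10 with sorafenib (edgeR adjusted p = 0.0496), a call lost without any 1 of 12 libraries. Xbp1 fell by 0.48 with DMSO (edgeR adjusted p = 2.15e-09) and Edem2 by 0.52 (edgeR adjusted p = 2.36e-08), against 0.00 (edgeR adjusted p = 0.969) and -0.05 (edgeR adjusted p = 0.486) with sorafenib. Sel1l and Calr differ from these in that the sorafenib level itself fell, by 0.32 (edgeR adjusted p = 8.37e-08) and 0.29 (edgeR adjusted p = 5.3e-09), while the DMSO level rose by 0.18 and 0.15.

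The neighbouring genes of the pathway were taken from lists chosen with earlier results of these data known, so their counts are a description. In the PERK and ATF4 arm, 8 of 9 genes rose and 1 fell at each time, with a median log2 fold change of 2.69 at 48 hours and 2.21 at 7 days. Beside this list and the later ones, 26.9% of all tested genes were higher and 27.7% lower at 48 hours. The shares were 28.9% and 27.9% at 7 days. In the fit limited to the 12158 genes with at least 10 counts in every library, 4445 rose and 4751 fell at 48 hours. At 7 days, 4686 of these rose and 4460 fell. Trib3, a pseudokinase target of ATF4, rose by 4.27 and 3.75, Chac1, which degrades glutathione, by 3.58 and 2.76, and Ddit3 (CHOP) by 3.57 and 2.90. Ppp1r15a (GADD34), which restores translation, rose by 2.69 and 3.09, and the gene that fell was Eif2ak3 (PERK itself), by 0.23 and 0.46. The composite element TGATGNAA was present in 4 of the 9 genes of this arm (Asns, Atf3, Chac1 and Trib3), and neither form of the ERSE was present in any window of the neighbouring lists.

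Of 22 other ER folding genes, 11 rose and 4 fell at 48 hours (median 0.07), and 4 rose and 9 fell at 7 days (median -0.06). Ero1a, the partner of P4hb in disulfide formation, stood apart, from 4019 to 8729 normalised counts at 48 hours and from 1834 to 9769 at 7 days, log2 fold changes of 1.12 and 2.41. Mogs, which trims the first glucose from new glycans, fell by 0.43 and 1.00. Fkbp2 and Clgn, also taken by the size of their fold change, had group means below 10 normalised counts and did not pass. Of 20 other ERAD genes, 11 rose and 5 fell at 48 hours (median 0.17), and 12 rose and 5 fell at 7 days (median 0.11). The ubiquitin-conjugating enzyme Ube2j1 rose by 0.90 and 0.54, while the ubiquitin ligase Rnf5 fell by 0.72 and 0.35, its 48-hour value being -0.60 without the library that drops on chromosome 14. Rnf139, another ligase, fell by 0.52 at 7 days.

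Of 15 genes of the translocon and signal peptidase, 6 rose and 5 fell at 48 hours (median 0.01), and 2 rose and 12 fell at 7 days (median -0.29), the same direction as Sec61b. Sec61g fell by 0.46 and 0.53, Spcs2 by 0.54 and 0.39, Ssr1 by 0.49 and Ssr4 by 0.51 at 7 days, and Sec11c, a catalytic subunit of signal peptidase, rose by 1.01 and 0.46. Among 12 cytosolic heat shock genes, which do not belong to the ER response, 3 rose and 7 fell at 48 hours and 4 rose and 3 fell at 7 days. Hsp90aa1 rose by 0.47 and 0.33, Hspb1 by 0.52 at 7 days, Hspa1b fell by 0.69 at 48 hours and Hspa1a rose by 0.46 at 7 days, and the last pair are near-identical copies whose counts are uncertain.

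Of 6 genes for ATF6 and XBP1 processing and related ER-membrane factors, 2 rose and 2 fell at 48 hours and 1 rose and 4 fell at 7 days. Creb3l1, a factor cut like ATF6, fell by 0.41 at 48 hours and fell by 3.66 at 7 days, where it went from 2397 to 189.8 normalised counts. Creb3 rose by 1.09 at 48 hours and by 0.16 at 7 days, Creb3l2 rose by 0.16 and fell by 0.76, and Mbtps2, a protease that cuts ATF6, fell by 0.36 at 7 days. Of 7 reported IRE1 substrates, whose mRNA IRE1 can cut, 1 rose and 4 fell at 48 hours and 1 rose and 5 fell at 7 days. Bloc1s1 fell by 0.87 and 0.43, Col6a1 by 1.76 and 3.06 and Pmp22 by 0.20 and 1.46, Sparc rose by 1.12 at 48 hours, and Scara3, with group means below 10 normalised counts, rose by 1.39 at 7 days. Col6a1 and Sparc are also matrix genes, and fibroblast markers moved with treatment as given above.

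The values of the members in the library that drops on chromosome 14 were set against the other 3 libraries of its group. The 6 members behind the point stood at 0.595 to 0.808 of the mean of the other 3, Dnajc3 at 0.602, and Derl3, on chromosome 10 and with few counts, at 0.618. The other 23 members stood at 0.906 to 1.133. Over the 25 members placed before the point, 12 were higher and 8 lower at 48 hours. These 25 still include Dnajc3, which was low in that library. Of the 25, the 8 ERAD factors had 6 higher and 1 lower with a median of 0.60. The 12 chaperones, Dnajc3 among them, had 4 higher and 5 lower with a median of -0.06.

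**Figure D5:**
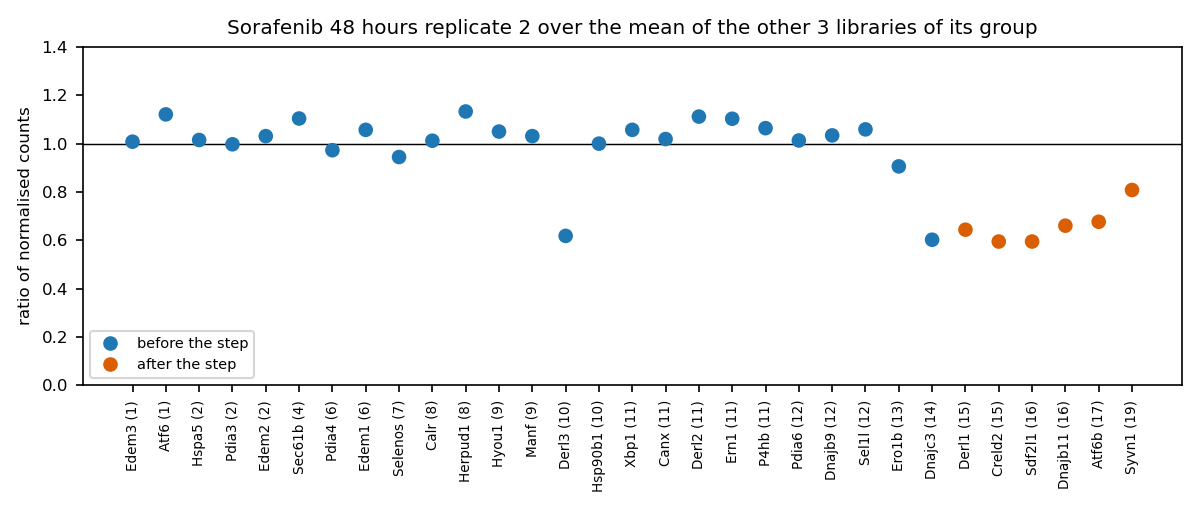
Ratio of the normalised count in sorafenib replicate 2 at 48 hours to the mean of the other 3 libraries of its group, for each member in genome order, in blue before and in orange behind the point on chromosome 14. The orange points lie at 0.595 to 0.808, and the blue ones at 0.906 to 1.133 except Dnajc3 at 0.602 and Derl3 at 0.618.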

How the data were processed

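RNA-seq counts were analysed for 16 libraries (total RNA, Illumina Stranded mRNA Prep). The authors deposited unnormalised counts of reads per gene, and the submitters' processing notes name STAR 2.7.1a, featureCounts 2.0.6, DESeq2 1.40.2 and GRCm39. The annotation and the strand setting of the counting are not given in the sources used here. Groups were taken from the labels, the dose from the study's methods, and positions from the GENCODE annotation of GRCm39. Genes with fewer than 10 counts over all libraries were removed (20396 of 40840). Counts were scaled by TMM and tested with edgeR 4.0.16 (quasi-likelihood test, R 4.3.3) in 1 fit over all 16 libraries with group means, and p-values were adjusted by the Benjamini-Hochberg method over all 20444 genes, with 0.05 as threshold. Normalised counts are counts divided by the effective library size and multiplied by the geometric mean of those sizes, and standard errors were taken from the fold change and its F statistic. Sequencing depth was 16586254 to 30828427 counts per library. 2 genes, AY036118 and LOC118568312, took 0.29% to 3.04% of the counts. The code was tested on simulated data. Alternatives were DESeq2 1.42.0, limma 3.58.1 (voom), other scalings and filters, the replicate number as a block, and leaving out each library.

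The members and lists were chosen with earlier results of these data known. All members are named. Values per library are given for members called with a log2 fold change of at least 1 at either time, for the 5 called members with the largest interaction, and for Hspa5, Hsp90b1, Xbp1, Atf6, Ern1, Herpud1 and Sel1l, and Calr was added after its values were seen. Of each other list, the 3 genes with the largest change at each time are named, and Eif2ak3 was added as the gene that fell, while 1 gene that this rule takes is not reported here. No 2 replicates differed by less than the sampling noise (the lowest chi-square per gene was 1.486, where 1 is counting error alone).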

Additional observations from a re-analysis of the deposited data

Results flagged for a closer look

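In 12 of the 124 groups of 4 libraries (31 genes in 4 groups), 1 library lay apart from the other 3 by Dixon's test at the 95% level, where chance gives about 1 in 20. 4 of the 12 concern replicate 2 of sorafenib at 48 hours, with Dnajc3 low at 1638 normalised counts, Atf6b low at 1685, Herpud1 high at 3366 and Xbp1 high at 1865. The others in the sorafenib groups were Canx low at 22419 (48 hours, replicate 1), Derl3 high at 8.42 (48 hours, replicate 1) and Xbp1 high at 1852 (7 days, replicate 2). In the DMSO groups they were Hyou1 low at 8693 (7 days, replicate 1), Edem1 low at 1388 (48 hours, replicate 1), Selenos high at 715 (48 hours, replicate 2), Syvn1 high at 2374 and Sec61b low at 1346 (both 48 hours, replicate 4).

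The response to sorafenib differed between 7 days and 48 hours for 20 members by the interaction term (edgeR adjusted p below 0.05). On the log2 scale, the 7-day response minus the 48-hour response was -0.15 for Hsp90b1, -0.25 for Hyou1, -0.44 for Calr, -0.13 for Canx, -0.10 for Pdia3, -0.17 for Pdia4, 0.10 for P4hb, 0.49 for Dnajb9, -0.66 for Dnajb11 and -0.46 for Creld2 among the chaperones and folding enzymes. It was -0.30 for Herpud1, -0.35 for Edem1, 0.47 for Edem2, -0.57 for Edem3, -0.51 for Sel1l, 0.34 for Syvn1 and -0.65 for Selenos among the ERAD factors. Among the sensors and factors it was 0.48 for Xbp1, -0.67 for Atf6 and -0.47 for Atf6b.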

How the results depend on the processing

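With a change of at least 1 on the log2 scale also required, 4 members were higher and 1 lower at 48 hours, 3 higher and 2 lower at 7 days, and 0 in either direction for the difference between the times, for time with DMSO and for time with sorafenib. Over all 20444 tested genes, these limits gave 1806 higher and 1884 lower at 48 hours, and 2479 and 1723 at 7 days. They gave 1101 and 864 for the difference, 871 and 1371 for time with DMSO, and 975 and 752 for time with sorafenib. With the same size limit and an unadjusted p below 0.05 with edgeR, the last 3 gave 1 (Derl3), 0 and 0. With the same size limit and an adjusted p below 0.05, they gave 0, 0 and 0 with DESeq2, and 1 (Derl3), 1 (Derl3) and 0 with limma. With at least 10 counts in every library, 9 members rose with time under sorafenib, against 5 in the main fit. Over all genes, 3537 of 12158 rose in that setting, against 3570 of 20444 in the main fit. Leaving out 1 library at a time gave 13 to 17 higher and 10 to 13 lower at 48 hours, 14 to 15 and 13 at 7 days, 4 to 6 and 11 to 20 for the difference between the times, 15 to 18 and 7 to 9 for time with DMSO, and 4 to 7 and 7 to 10 for time with sorafenib. The deviations of same-numbered libraries correlated at -0.047 to 0.122, and those of differently numbered libraries at -0.157 to 0.110. No clear pairing by number was seen, which does not exclude a pairing. With the replicate block, 14 members were higher and 11 lower at 48 hours, 14 and 13 at 7 days, 4 and 14 for the difference, 18 and 8 for time with DMSO, and 5 and 9 for time with sorafenib. DESeq2 also called Hsp90b1 and Pdia6 lower at 48 hours. The other alternatives kept the counts within 1.5 times, and no member named reversed its direction among called values. Depth limits Derl3 and Ero1b most.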
